A study of Mus musculus with 16 samples.

Results

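Oligodendrocyte-lineage cells of App knock-in mice were compared with those of wild-type mice that had eaten the same high-fat diet. The comparison used 8 of the 16 RNA sequencing libraries of the series, 4 from each genotype, and each library carries the number of 1 mouse. The knock-in mice, called App_HFD here, were homozygous App NL-G-F/NL-G-F animals from an inbred line. Their own App gene carries a humanized amyloid-β stretch together with the Swedish, Beyreuther/Iberian and Arctic mutations. The wild-type mice, called WT_HFD, were C57BL/6J Jcl animals bought from a breeder, so genotype and colony cannot be told apart. All 8 mice were male, started a diet in which fat supplied 60.0% of the energy at 2 months of age, stayed on it for 6 months and were sampled at 8 months. Brains were perfused with saline, and cells were isolated with magnetic beads before RNA extraction, poly(A) selection and directional library preparation. The antibody on the beads is not given in the sources used here. The other 8 libraries came from mice of both genotypes on a control diet in which fat supplied 12.5% of the energy. They enter only where the effect of genotype is set beside that on the other diet.

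Oligodendrocytes make the myelin that insulates axons, and they build it from cholesterol, long-chain fatty acids and galactolipids that they largely synthesize themselves. The NL-G-F allele makes neurons and other App-expressing cells release an aggregation-prone amyloid-β from the gene's own promoter, so plaques form without overexpression of App. Microglia gather at such plaques and take up a state that depends on the receptor Trem2 and is marked by Cst7, Itgax, Lpl and Gpnmb. High-fat feeding is widely used to produce obesity and insulin resistance in mice.

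Expression is given as CPM, counts scaled to a common library size, with library sizes adjusted by the trimmed mean of M-values (TMM). Values are always listed in the order WT_HFD 2, 3, 15, 16 and App_HFD 547, 559, 560, 561. Where 2 levels of a gene are given, they are the means of WT_HFD and App_HFD. A log2 fold change (log2FC) is App_HFD minus WT_HFD, in log2 units, ± its standard error, and a gene is called where the p-value of edgeR's quasi-likelihood test, adjusted over all genes tested, is below 0.05. "Rose" and "fell" are used only for called genes. Counts given without certain libraries, joined by "or", come from fits that left out 1 of them at a time. Levels of different genes are not compared, because CPM is not corrected for transcript length.

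The 8 libraries held between 64538300 and 101737000 counts, with the 4 App_HFD libraries (64538300 to 84114300) all shallower than the 4 WT_HFD libraries (90220100 to 101737000). Haemoglobin genes took 0.929% of the counts in WT_HFD 2 and 0.515% in WT_HFD 16, against 0.0419% to 0.119% in the other 2 WT_HFD libraries and 0.0150% to 0.0453% in App_HFD. The 35 markers of mature oligodendrocytes and myelin took 7.38% to 8.13% of the counts in WT_HFD and 5.24% to 6.85% in App_HFD, with no overlap. Without Enpp2, which choroid plexus also makes, their summed levels were 58779, 60317, 67033 and 60456 CPM in WT_HFD and 59713, 46151, 53442 and 62124 CPM in App_HFD, and the groups overlapped. Neuronal markers were near the floor, with summed levels of 98.9 to 116 CPM in WT_HFD and 81.4 to 117 CPM in App_HFD over 14 genes, most of it from Tubb3. Markers of microglia, astrocytes and choroid plexus were all detected, so the sorted fraction also held RNA of other cells. Fewer cells of a type and less RNA per cell cannot be told apart in such bulk libraries.

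App itself (ENSMUSG00000022892, chromosome 16, 84949685 to 85173766, mm10) was lower in the knock-in cells. Its levels were 3674, 3363, 3387 and 2871 CPM in WT_HFD and 2454, 2187, 2611 and 2452 CPM in App_HFD. The groups did not overlap, and App fell to 0.730 of the wild-type level (log2FC −0.45 ± 0.11, adjusted p = 0.0154). This value does not check the genotype labels, because the mutations change the coding sequence and leave the promoter in place. The call was lost without WT_HFD 15 (adjusted p = 0.0507) or without App_HFD 547 (adjusted p = 0.0529), and with scaling to the oligodendrocyte markers (log2 fold change −0.20, adjusted p = 0.170). Of the 25 genes tested within 5 Mb of App, 3 rose and 4 fell (28.0%, against 23.6% of all genes tested). Mir155hg, the host transcript of a microRNA of immune cells, Adamts1, a matrix protease, and Bach1, a repressor of haem oxygenase, were the 3 that rose.

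Of 53801 genes in the table, 20374 were expressed well enough to test. Between the genotypes 4816 of them differed (23.6%): 2478 rose (12.2%) and 2338 fell (11.5%) in App_HFD. The shares of 12.2% and 11.5% belong beside the counts of every gene list below. Of all genes tested, 44.4% had a log2FC above 0. Large changes were more often rises than falls. A called change of at least 2-fold was found for 1100 genes that rose and 609 that fell, and one of at least 4-fold for 293 and 55. The balance depended on scaling. When libraries were scaled to the mature oligodendrocyte and myelin markers, 3788 genes rose and 443 fell (89.5% higher, against 51.5% in the main fit), and the median log2FC of all genes moved from −0.048 to 0.20. No gene called in both fits changed direction. Leaving out App_HFD 547, App_HFD 559 or WT_HFD 3 lowered the number of calls to 2874, 2999 and 3201.

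**Figure D1:**
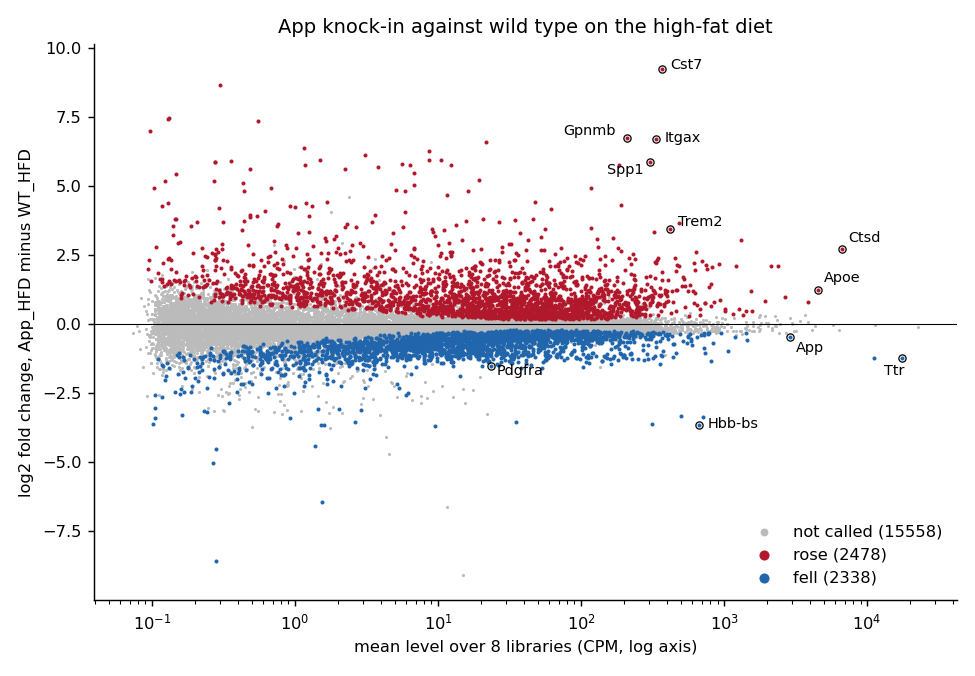
Each point is 1 of the 20374 tested genes, with its mean level over the 8 libraries (CPM, log axis) on the x axis and its log2 fold change, App_HFD minus WT_HFD, on the y axis. Genes that rose (2478) are red, genes that fell (2338) are blue and the rest are grey; at 100 CPM and above the rises reach 9.24 (Cst7), while the lowest fall is −3.66 (Hbb-bs).

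The genes of the plaque-associated microglial state stood at the top of the comparison. Of 34 genes listed for this state, 33 rose and none fell, with a median log2FC of 2.65 against −0.048 over all genes tested. All 33 had App_HFD values above every WT_HFD value, a separation shown by 13.2% of all genes. Cst7, a cathepsin inhibitor (ENSMUSG00000068129, chromosome 2, 150570415 to 150578944), measured 1.002, 0.514, 0.718 and 2.598 CPM in WT_HFD and 846, 949.7, 596 and 530.4 CPM in App_HFD. It was near 1 CPM in the wild type and above 500 CPM in every knock-in library (log2FC 9.24 ± 0.58, adjusted p = 2.34e-05). Gpnmb, a glycoprotein of lysosome-rich phagocytes, measured 4.02, 4.08, 3.14 and 4.07 CPM in WT_HFD and 410.3, 532, 398 and 309 CPM in App_HFD. Its 4 knock-in values lay far above the wild-type range (log2FC 6.75 ± 0.20, adjusted p = 4.37e-07).

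Cell-surface members of the state moved with them. Itgax, the integrin CD11c, measured 6.72, 5.88, 4.59 and 7.96 CPM in WT_HFD and 725, 817, 571 and 527 CPM in App_HFD, with WT_HFD 16 the highest of the wild type (log2FC 6.71 ± 0.24, adjusted p = 1.02e-06). Clec7a, the β-glucan receptor dectin-1, rose from 7.48 to 228 CPM (log2FC 4.93 ± 0.25). Spp1, the secreted matrix protein osteopontin, measured 5.88, 12.5, 7.37 and 14.8 CPM in WT_HFD and 543, 836, 697 and 324 CPM in App_HFD. The 2 groups were far apart although App_HFD 561 had less than the other 3 knock-in libraries (log2FC 5.89 ± 0.42, adjusted p = 4.17e-05). Lpl, lipoprotein lipase, rose from 6.67 to 362 CPM (log2FC 5.76 ± 0.45). Igf1, a growth factor, rose from 6.43 to 118 CPM (log2FC 4.19 ± 0.20), and Csf1, the ligand of Csf1r, from 111 to 566 CPM (log2FC 2.35 ± 0.12).

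Some members rose by less than the median of the list. Apoe, the main apolipoprotein of the brain, measured 2939.9, 2745, 2390.0 and 2668 CPM in WT_HFD and 6801, 7387, 6337 and 4845 CPM in App_HFD. Every knock-in value was above the wild-type range (log2FC 1.24 ± 0.14, adjusted p = 0.000416). Cd9, a tetraspanin, rose from 365 to 853 CPM (log2FC 1.23 ± 0.14), and Fabp5, a fatty acid carrier, from 67.7 to 109.5 CPM (log2FC 0.69 ± 0.21). Fth1, the ferritin heavy chain, was the 1 gene of the list that did not pass (log2FC 0.23 ± 0.11, adjusted p = 0.16). Fabp5 was not called in 6 of the 8 fits that left out 1 library (adjusted p up to 0.109 without WT_HFD 3).

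**Figure D2:**
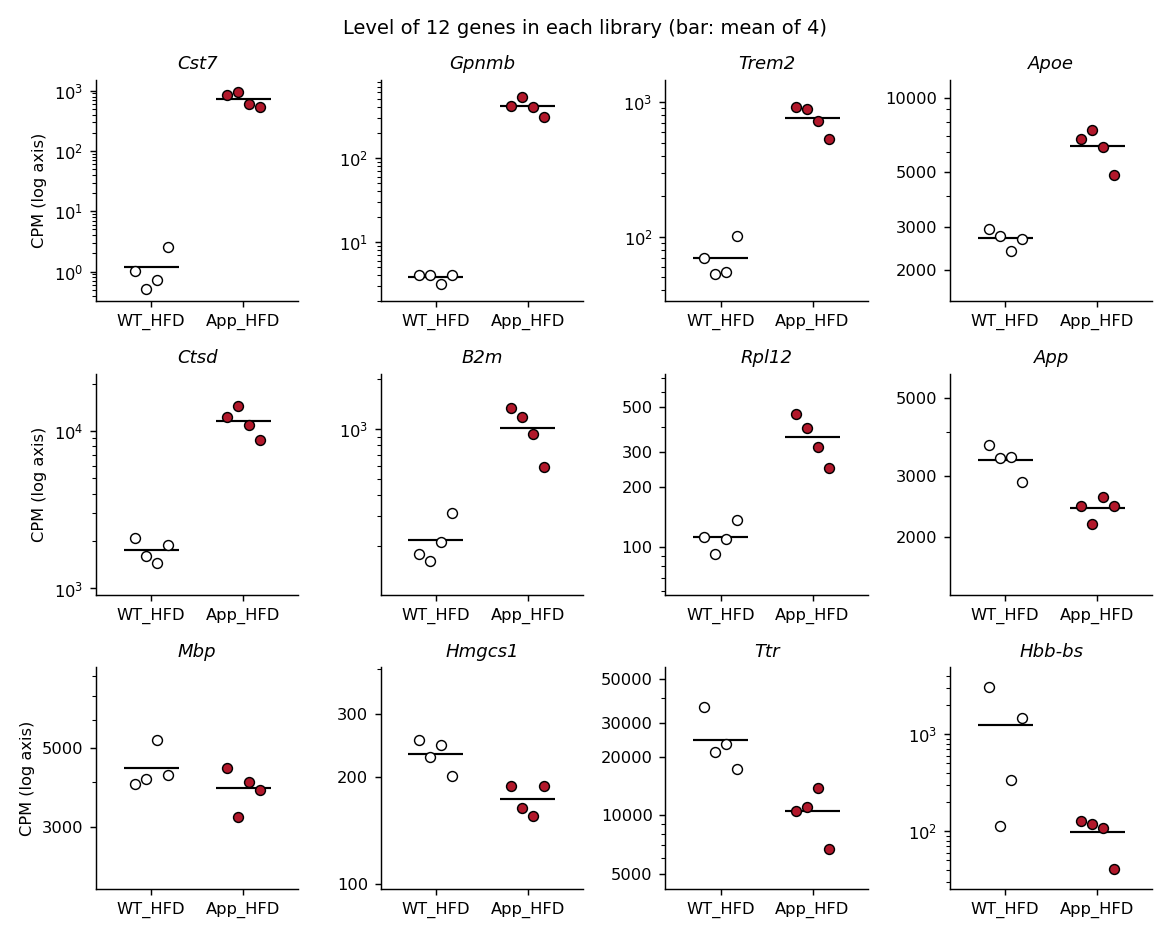
Levels of 12 genes in each of the 8 libraries (CPM, log axis); open circles are WT_HFD libraries 2, 3, 15 and 16, filled circles are App_HFD libraries 547, 559, 560 and 561, and bars are group means. Cst7, Gpnmb, Trem2, Apoe, Ctsd, B2m and Rpl12 lie higher in App_HFD without overlap, App, Hmgcs1 and Ttr lie lower without overlap, the values of Mbp overlap, and Hbb-bs is high in WT_HFD 2 and 16.

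Genes of resting microglia rose as well. Of 17 homeostatic genes, 15 rose and none fell, with a median log2FC of 1.22. Csf1r, the receptor that microglia need to survive, measured 953, 788, 669 and 1319 CPM in WT_HFD and 2243, 2677, 1943 and 1847 CPM in App_HFD (log2FC 1.22 ± 0.21, adjusted p = 0.0037). Cx3cr1, the fractalkine receptor, rose from 389.7 to 861 CPM (log2FC 1.14 ± 0.22). The 2 genes that did not pass are those most used to name homeostatic microglia: P2ry12, a purinergic receptor, had 239, 181, 181 and 344 CPM in WT_HFD and 418, 471, 334 and 228 CPM in App_HFD (log2FC 0.62 ± 0.26, adjusted p = 0.117), and Tmem119 had 209, 155, 159 and 306 CPM in WT_HFD and 273, 328, 252 and 159 CPM in App_HFD (log2FC 0.29 ± 0.26, adjusted p = 0.465). WT_HFD 16 had the highest level of both in its group, within the range of the knock-in libraries. With WT_HFD 3 and 15 as the only wild-type libraries, 16 of the 17 rose.

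The summed level of the homeostatic list was 4704, 3868, 3621 and 6691 CPM in WT_HFD and 15923, 17137, 12827 and 10469 CPM in App_HFD, so the groups did not overlap. Its part in the other immune changes was not tested. Macrophages of the brain's borders share many genes with microglia, and 2 of 9 markers rose, Lyve1 from 34.9 to 59.8 CPM (log2FC 0.78 ± 0.16) and Folr2 from 6.66 to 10.4 CPM (log2FC 0.65 ± 0.20). Mrc1, the mannose receptor of these cells, had a log2FC of 0.44 ± 0.18 (adjusted p = 0.109). Of the 9 border macrophage markers, 6 rose without WT_HFD 16 (median 0.72), and also 6 with WT_HFD 3 and 15 as the only wild-type libraries and 6 on the oligodendrocyte scale. Over the 7 T and NK cell markers tested, 1 rose, against 12.2% of all genes tested, and none fell. The 1 was the chemokine gene Ccl5 (0.614 to 1.503 CPM). Folr2 was not called in 6 of the 8 fits that left out 1 library (adjusted p up to 0.0986 without App_HFD 547) and Ccl5 in 5 (up to 0.0837 without App_HFD 547).

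Most genes listed for the Trem2 pathway rose. Trem2 binds lipids and signals through the adaptor Tyrobp and the kinase Syk. Trem2 measured 69.1, 53.04, 54.5 and 102 CPM in WT_HFD and 918, 886, 720.3 and 529 CPM in App_HFD (log2FC 3.45 ± 0.26, adjusted p = 4.48e-05), and Tyrobp measured 61.2, 54.6, 54.8 and 108 CPM in WT_HFD and 1138, 1080.0, 745 and 607 CPM in App_HFD (log2FC 3.68 ± 0.30, adjusted p = 6.34e-05). Both were separated between the groups, with App_HFD 547 the highest and App_HFD 561 the lowest of the knock-in libraries. Of the 20 genes listed for the pathway, 18 rose and none fell, with a median of 1.19. They included Inpp5d, the phosphatase SHIP1 (135 to 332 CPM, log2FC 1.30 ± 0.20), and Plcg2, a phospholipase (31.03 to 73.9 CPM, log2FC 1.25 ± 0.23). Syk itself did not pass (log2FC 0.68 ± 0.25, adjusted p = 0.0782).

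Receptors for opsonized and dying cells rose in part. Of 25 Fc and phagocytic receptors and bridging proteins, 14 rose and 2 fell. Fcer1g, the common Fc receptor chain, rose from 44.3 to 228 CPM (log2FC 2.36 ± 0.26), Fcgr2b, the inhibitory Fc receptor, from 54.1 to 215 CPM (log2FC 1.99 ± 0.20), and Axl, a receptor tyrosine kinase, from 68.1 to 361 CPM (log2FC 2.41 ± 0.15). The 2 that fell are known from astrocytes: Megf10, a phagocytic receptor (log2FC −0.37 ± 0.11), and Mfge8, a bridging protein (log2FC −0.75 ± 0.10). With the oligodendrocyte markers as the scale, 1 of these falls remained a call in the list. Megf10 was not called in 6 of the 8 fits that left out 1 library (adjusted p up to 0.138 without WT_HFD 15).

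Inhibitory and paired receptors gave some of the largest changes, with 20 of 31 higher, 1 lower and a median of 1.48. Pdcd1, the checkpoint receptor PD-1, measured 0.471, 0.433, 0.349 and 0.507 CPM in WT_HFD and 27.04, 30.6, 19.7 and 19.2 CPM in App_HFD (log2FC 5.77 ± 0.21, adjusted p = 1.02e-06). Pianp, a partner of the paired receptor PILRα, measured 0.399, 0.493, 0.359 and 0.496 CPM in WT_HFD and 46.4, 57.6, 41.8 and 25.1 CPM in App_HFD (log2FC 6.61 ± 0.29, adjusted p = 4.45e-06). Lag3 (31.7 to 165 CPM, log2FC 2.38 ± 0.24), Cd274, which encodes PD-L1 (7.08 to 33.1 CPM, log2FC 2.22 ± 0.29), and Havcr2, which encodes TIM-3 (38.6 to 128 CPM, log2FC 1.72 ± 0.20), rose with them. Cd200, the ligand by which other cells hold microglia in check, fell from 15.9 to 11.3 CPM (log2FC −0.49 ± 0.15), a call that was lost with scaling to the oligodendrocyte markers. Its receptor Cd200r1 rose from 2.21 to 6.26 CPM (log2FC 1.50 ± 0.28). Cd200 was not called in 7 of the 8 fits that left out 1 library (adjusted p up to 0.129 without App_HFD 559).

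2 genes were at or under 0.1 CPM in each wild-type library and above 1 CPM in each knock-in library. One was Cd5, a receptor of lymphocytes (0.0511, 0.0604, 0 and 0.0528 CPM in WT_HFD and 2.56, 3.21, 2.03 and 1.42 CPM in App_HFD), and the other an antisense transcript of the X chromosome, Gm15156 (0.0409, 0, 0.0308 and 0.0317 CPM in WT_HFD and 2.74, 2.69, 2.08 and 1.61 CPM in App_HFD). The pair was singled out after its values were seen, and whether counting used strand is not given in the sources used here. Among T cell markers, Trac had 0.796 and 0.575 CPM and Cd3g had 0.0856 and 0.128 CPM in the 2 groups and did not pass; 6 of the 7 T and NK cell markers tested did not pass and 6 were under the filter.

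Complement components made by microglia rose, while several regulators of the cascade fell. Of 20 genes, 11 rose and 4 fell. C1qa rose from 336 to 1513 CPM (log2FC 2.17 ± 0.23), C3, the central component, from 7.16 to 20.2 CPM (log2FC 1.49 ± 0.44), and C3ar1, a receptor for its fragment, from 31.5 to 128 CPM (log2FC 2.02 ± 0.17). Cd55 (log2FC −1.08 ± 0.17) and Cd59a (log2FC −0.91 ± 0.15), which protect cell surfaces from complement, and Serping1, the C1 inhibitor (log2FC −0.96 ± 0.29), fell. C3 was not called in 7 of the 8 fits that left out 1 library (adjusted p up to 0.101 without WT_HFD 3) and Serping1 in 5 (up to 0.108 without App_HFD 559).

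Inflammatory cytokines and sensors rose almost throughout. Of 34 genes of Toll-like receptors, the inflammasome and NF-κB, 29 rose and none fell (median 1.21). Tnf measured 18.4, 22.8, 27.05 and 40.2 CPM in WT_HFD and 244, 308, 208 and 168 CPM in App_HFD (log2FC 3.10 ± 0.27, adjusted p = 9.55e-05), and Il1b measured 18.6, 23.1, 22.6 and 34.9 CPM in WT_HFD and 128, 101, 99.03 and 99.1 CPM in App_HFD (log2FC 2.10 ± 0.19, adjusted p = 0.000107). In both, App_HFD 547 and 559 were the 2 highest. Tlr2 rose from 32.7 to 230.1 CPM (log2FC 2.81 ± 0.15), whereas Tlr3 (log2FC −0.17 ± 0.10) and Il18 (log2FC −0.07 ± 0.10) did not pass. Among 25 chemokine genes, 14 rose and 2 fell. Ccl6 rose from 18.1 to 364 CPM (log2FC 4.33 ± 0.37) and Ccl3 from 68.1 to 395 CPM (log2FC 2.53 ± 0.27). Cx3cl1, the neuronal ligand of Cx3cr1, fell from 22.04 to 13.8 CPM (log2FC −0.67 ± 0.14). Ccr2, a receptor of blood monocytes, had a log2FC of −0.03 ± 0.31 (adjusted p = 0.965). Of 8 colony-stimulating factors and receptors tested, 7 rose, Csf1 and 6 receptors, led by the receptor Il3ra (1.52 to 16.6 CPM, log2FC 3.45 ± 0.33).

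Antigen presentation rose in both classes. For class I, which shows peptides of the cell's own proteins, 20 of 23 genes rose and none fell (median 1.00). B2m, the invariant light chain, measured 179, 161, 211 and 313 CPM in WT_HFD and 1349, 1179, 932 and 595 CPM in App_HFD (log2FC 2.23 ± 0.28, adjusted p = 0.000763). App_HFD 561 was the lowest of the knock-in libraries and still above WT_HFD 16. The heavy chain H2-D1 rose from 155 to 582 CPM (log2FC 1.91 ± 0.17), and the immunoproteasome subunit Psmb8 from 10.7 to 41.5 CPM (log2FC 1.96 ± 0.26). The class I heavy chains share long stretches of sequence, so reads may have been divided among them. The general chaperones Canx, Calr and Pdia3, which also serve other proteins, did not pass (log2FC of 0.04 ± 0.10, 0.24 ± 0.17 and 0.05 ± 0.13).

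For class II, 10 of 14 genes rose, Cd74, the invariant chain, from 227 to 543 CPM (log2FC 1.26 ± 0.19) and H2-Aa from 78.4 to 164 CPM (log2FC 1.07 ± 0.18). Ciita, the regulator of class II genes, did not pass (log2FC −0.18 ± 0.45, adjusted p = 0.813). Of 35 interferon-stimulated genes, 21 rose and none fell, with a median of 0.66. Ifi27l2a rose from 4.66 to 18.4 CPM (log2FC 1.98 ± 0.30) and Oas1a from 2.81 to 9.71 CPM (log2FC 1.79 ± 0.19), while Isg15 (4.63 and 5.85 CPM), Ifit1 (3.298 and 4.002 CPM) and Rsad2 (15.3 and 7.79 CPM), standard markers of type I interferon, did not pass.

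Of 18 cathepsins and cystatins, 13 rose and none fell (median 1.59). Ctsd, an aspartic protease of the lysosome, measured 2096, 1598, 1452 and 1878 CPM in WT_HFD and 12247, 14515, 10899.7 and 8718 CPM in App_HFD (log2FC 2.72 ± 0.19, adjusted p = 2.42e-05). All 4 knock-in values lay far above the wild-type range, at a mean of 6.603 times the wild type. Ctsb rose from 889.9 to 3888 CPM (log2FC 2.13 ± 0.15), and Cst3, cystatin C, from 1797 to 3569 CPM (log2FC 0.99 ± 0.20). Of 27 other hydrolases, 21 rose and 2 fell. Gusb, β-glucuronidase, rose from 51.7 to 328 CPM (log2FC 2.67 ± 0.16) and Hexa from 142 to 762 CPM (log2FC 2.42 ± 0.15), while Smpd1, acid sphingomyelinase, fell (log2FC −0.45 ± 0.12). Galactosylceramidase, Galc, which degrades a myelin lipid, rose from 86.9 to 115 CPM (log2FC 0.40 ± 0.06). Smpd1 was not called in 6 of the 8 fits that left out 1 library (adjusted p up to 0.0756 without App_HFD 547).

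Of 30 genes of the lysosomal membrane, its acidification and its control, 13 rose and 1 fell. Atp6v0d2, a proton pump subunit of macrophages and osteoclasts, measured 0, 0.121, 0.0821 and 0.676 CPM in WT_HFD and 19.8, 22.1, 15.1 and 11.5 CPM in App_HFD (log2FC 6.29 ± 0.83, adjusted p = 0.00141). Its widely expressed counterpart Atp6v0d1 had 94.03 and 96.9 CPM (log2FC 0.04 ± 0.06). Grn, progranulin, rose from 239 to 1169.8 CPM (log2FC 2.29 ± 0.18). Of the transcription factors that drive lysosomal genes, Tfe3 rose (log2FC 0.59 ± 0.10) and Tfeb (log2FC −0.02 ± 0.09) and Mitf (log2FC −0.09 ± 0.15) did not pass. Tmem106b, a lysosomal membrane protein, fell (326 to 255 CPM, log2FC −0.36 ± 0.09). Tmem106b was not called in 3 of the 8 fits that left out 1 library (adjusted p up to 0.0797 without App_HFD 547).

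The promoters of 4 genes that hold a motif word are shown, from the plaque-associated, class I, cathepsin and cholesterol synthesis lists. Each run holds the 250 bases before a RefSeq start of the gene on mm10 (GRCm38.p6), and capitals mark a motif word found on either strand. Spp1 has 2 such windows, and the one shown was taken because it holds the word. The window of Spp1 (chr5:104434861-104435110, plus strand) holds GAGGAAGT, a word bound by the myeloid factor PU.1. That of B2m (chr2:122147437-122147686, plus strand) holds GAAA, any 2 bases and GAAA, an interferon response word. That of Ctsd (chr7:142387828-142388077, minus strand) holds TCACGTGA, the core of the lysosomal CLEAR element. That of Hmgcs1 (chr13:119690101-119690350, plus strand), an early enzyme of cholesterol synthesis, holds TCACCCCAC, a sterol response word.
Spp1: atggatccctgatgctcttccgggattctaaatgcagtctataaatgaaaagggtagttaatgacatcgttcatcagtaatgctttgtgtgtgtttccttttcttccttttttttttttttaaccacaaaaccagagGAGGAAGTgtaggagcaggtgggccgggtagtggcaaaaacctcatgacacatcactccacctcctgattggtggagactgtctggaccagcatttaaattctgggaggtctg
B2m: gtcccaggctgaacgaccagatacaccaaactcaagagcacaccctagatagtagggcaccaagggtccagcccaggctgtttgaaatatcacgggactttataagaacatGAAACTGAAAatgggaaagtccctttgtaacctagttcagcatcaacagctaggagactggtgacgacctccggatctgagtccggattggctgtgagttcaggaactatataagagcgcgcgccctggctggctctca
Ctsd: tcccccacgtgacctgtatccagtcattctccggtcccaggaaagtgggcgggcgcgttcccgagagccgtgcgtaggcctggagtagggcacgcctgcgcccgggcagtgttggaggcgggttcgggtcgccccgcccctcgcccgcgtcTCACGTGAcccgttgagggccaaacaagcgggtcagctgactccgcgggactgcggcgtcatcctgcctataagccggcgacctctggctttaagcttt
Hmgcs1: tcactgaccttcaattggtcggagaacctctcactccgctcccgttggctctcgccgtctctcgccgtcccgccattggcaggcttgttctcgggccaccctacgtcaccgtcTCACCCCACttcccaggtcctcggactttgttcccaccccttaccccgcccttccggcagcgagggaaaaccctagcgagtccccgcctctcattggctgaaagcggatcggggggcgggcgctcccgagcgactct

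RefSeq windows of 300 bases, which add 50 bases after the start, matched 13107 of the 20374 genes by symbol. Windows are counted by gene here, and a gene with several holds a word where any of them does. The PU.1 word lay in 3.67% of all windows, in 6.56% of those of genes that rose and in 2.49% of those of genes that fell. The interferon word lay in 3.86% of all windows, 6.22% and 3.61%, and in 61.5% of those of the interferon-stimulated list. The CLEAR word lay in 1.86% of all windows, 2.11% and 1.24%. The sterol word lay in 0.694% of all windows, 0.628% and 0.888%. The related M-box word of MITF, TCACATGA, lay in 0.977%, 1.77% and 0.71%. Most windows of the lists from which promoters are shown lack the word. The PU.1 word lay in 2 of 27 plaque-associated windows and the interferon word in 5 of 20 class I windows. The CLEAR word lay in 2 of 12 cathepsin and cystatin windows and the sterol word in 1 of 18 cholesterol synthesis windows. These shares describe the letters and were not tested.

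Transcription factors of the myeloid lineage rose, 18 of 25 with none lower. Irf8 rose from 36.8 to 162 CPM (log2FC 2.14 ± 0.21), and Spi1, which encodes PU.1, from 21.7 to 60.5 CPM (log2FC 1.48 ± 0.23). Immediate early genes, which respond within minutes to stimulation and also to tissue dissociation, rose in 16 of 24 cases with none lower. Atf3 measured 176, 147, 146 and 248 CPM in WT_HFD and 579, 669, 491 and 475 CPM in App_HFD (log2FC 1.63 ± 0.19, adjusted p = 0.000445), and Junb rose from 296 to 775 CPM (log2FC 1.39 ± 0.20). Arc, a gene of neuronal activity, had a log2FC of −0.26 ± 0.16 (adjusted p = 0.269). Cell cycle genes rose in 15 of 30 cases. Top2a measured 2.76, 3.84, 2.57 and 11.8 CPM in WT_HFD and 16.1, 24.8, 14.3 and 18.9 CPM in App_HFD (log2FC 1.82 ± 0.48, adjusted p = 0.0257), while Mki67, the gene of Ki-67, did not pass (log2FC 1.25 ± 0.67, adjusted p = 0.219). Top2a was not called in 5 of the 8 fits that left out 1 library (adjusted p up to 0.0828 without WT_HFD 3). Rises in the myeloid factor list numbered 11 without App_HFD 559. Rises in the cell cycle list numbered 8 without App_HFD 559 and 9 without WT_HFD 3 or WT_HFD 15.

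Ribosomal protein genes rose nearly as a block. Of 76 cytosolic ribosomal protein genes, 65 rose and none fell, with a median of 0.93. Rpl12 measured 112, 91.9, 110.1 and 136 CPM in WT_HFD and 461, 392, 317 and 248 CPM in App_HFD (log2FC 1.66 ± 0.19, adjusted p = 0.000492), and Rps28 rose from 47.5 to 154 CPM (log2FC 1.70 ± 0.41). In the fit over all 16 libraries 18 of them were called. Many processed pseudogenes copy these genes, and reads shared with such copies could be divided between them. Of the nuclear genes of the respiratory chain, 0 of 40 rose and 1 fell, the cytochrome gene Cyc1 (log2FC −0.29 ± 0.07), and 8 fell without WT_HFD 16. Of 13 mitochondrially encoded genes 2 rose, against 12.2% of all genes tested. Those 2 were mt-Atp8 (log2FC 1.24 ± 0.30) and mt-Nd4l (log2FC 0.58 ± 0.17), short genes that overlap their neighbours. Rps28 was not called in 3 of the 8 fits that left out 1 library (adjusted p up to 0.0647 without WT_HFD 2), Cyc1 in 5 (up to 0.0743 without WT_HFD 15) and mt-Nd4l in 5 (up to 0.0925 without App_HFD 560).

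**Figure D3:**
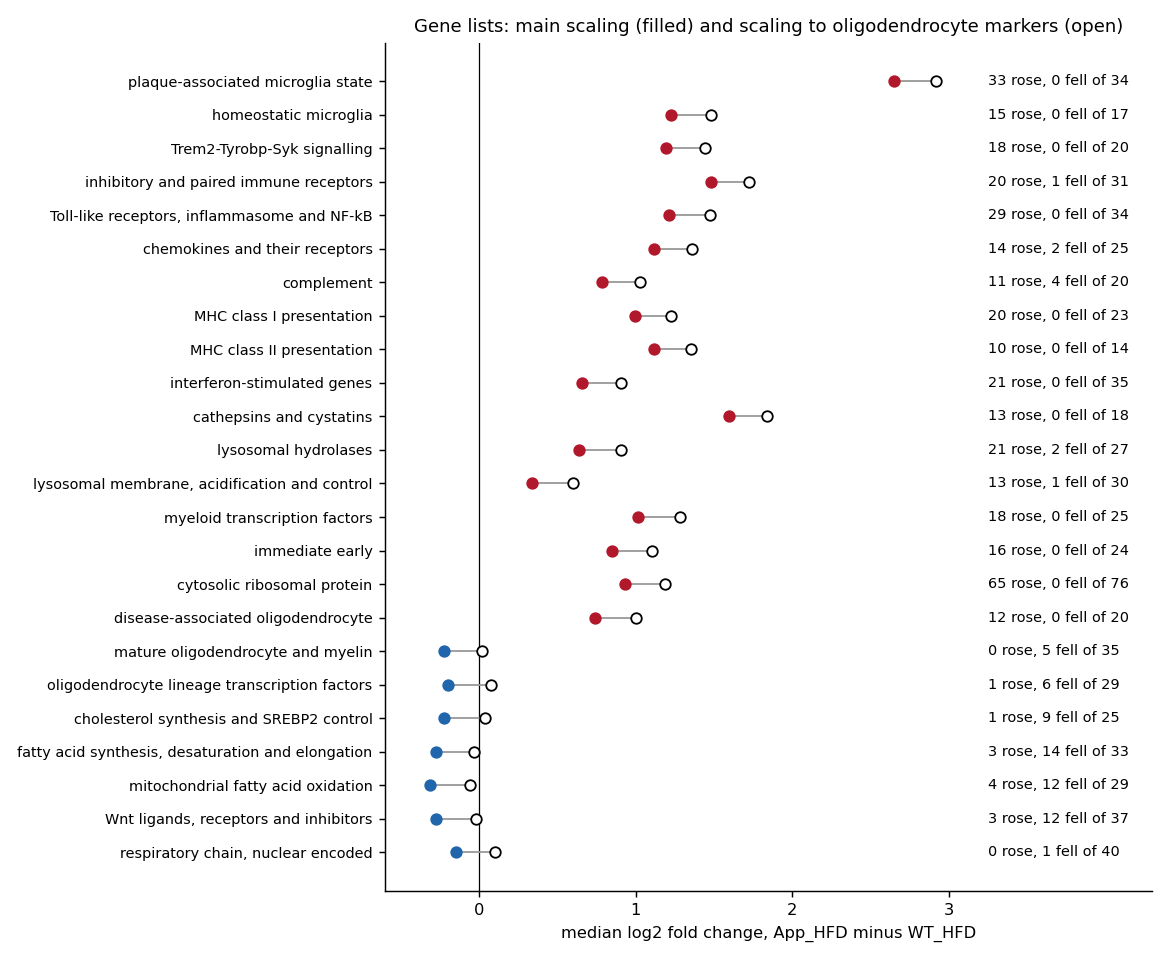
Median log2 fold change, App_HFD minus WT_HFD, of the tested members of 24 gene lists under the main scaling (filled circles) and after scaling to the mature oligodendrocyte and myelin markers (open circles), with the numbers of members that rose and fell in the main fit. Immune and lysosomal medians stay well above 0 under both. The medians of myelin, lineage factors, cholesterol, fatty acid and Wnt genes lie between −0.31 and −0.20 in the main fit and between −0.06 and 0.07 under the other. The myelin markers, Sox10 and Myrf among them, set the other scale, so their median is near 0 there by construction.

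Of 35 markers of mature oligodendrocytes and myelin, none rose and 5 fell, against 11.5% of all genes tested that fell. Their median of −0.23 became 0.02 when these same markers set the scale. Mbp, myelin basic protein, measured 3954, 4102, 5279 and 4203 CPM in WT_HFD and 4392, 3206, 4012 and 3813 CPM in App_HFD (log2FC −0.19 ± 0.14, adjusted p = 0.358). The groups overlapped. Opalin, a membrane protein of myelin, measured 239, 191, 305 and 227 CPM in WT_HFD and 162, 155, 127 and 166 CPM in App_HFD (log2FC −0.65 ± 0.14, adjusted p = 0.011), and no knock-in value reached the lowest of the wild type. Ugt8a, which makes galactosylceramide (827 to 632 CPM, log2FC −0.39 ± 0.10), Fa2h, which hydroxylates its fatty acid (461 to 363 CPM, log2FC −0.34 ± 0.09), and Tspan2 (1581 to 1273 CPM, log2FC −0.31 ± 0.09) fell by less. The fifth, Enpp2, which makes lysophosphatidic acid, measured 25880.3, 13816, 12620.1 and 9811 CPM in WT_HFD and 5579.6, 6597, 8904 and 5944 CPM in App_HFD (log2FC −1.20 ± 0.29, adjusted p = 0.0168). Choroid plexus also makes Enpp2 in quantity, and 8 of 12 markers of choroid plexus and ependyma fell in the same libraries. The part of that tissue in the level of Enpp2 was not tested. With scaling to the oligodendrocyte markers 1 of the 5 calls in the list was left. Enpp2 lost its call without App_HFD 547 or App_HFD 559 (adjusted p up to 0.0628). Ugt8a was not called in 3 of the 8 fits that left out 1 library (adjusted p up to 0.0757 without WT_HFD 15), Fa2h in 6 (up to 0.0879 without WT_HFD 15) and Tspan2 in 7 (up to 0.122 without WT_HFD 15). Falls in the myelin list numbered 2 without WT_HFD 2 or WT_HFD 15 or App_HFD 547 or App_HFD 559 or App_HFD 560.

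Transcription factors of the lineage gave 1 rise and 6 falls among 29, against 12.2% of all genes tested that rose and 11.5% that fell. Their median of −0.20 became 0.07 under scaling to the oligodendrocyte markers, a set that itself holds Sox10 and Myrf. Sox10 measured 185, 212, 209 and 179 CPM in WT_HFD and 179, 132, 261 and 182 CPM in App_HFD (log2FC −0.06 ± 0.18, adjusted p = 0.853) and Myrf, the master regulator of myelination, 850.4, 920.5, 1015 and 844 CPM in WT_HFD and 812, 696, 833 and 931 CPM in App_HFD (log2FC −0.15 ± 0.11, adjusted p = 0.366). Id4, an inhibitor of differentiation, fell from 90.7 to 51.9 CPM (log2FC −0.80 ± 0.12), and Sox6, a factor of precursors, from 17.4 to 11.4 CPM (log2FC −0.61 ± 0.17). At the paranodes, where myelin attaches to the axon, 5 of 24 junction genes fell and none rose, against 11.5% and 12.2% of all genes tested. The falls were led by Cntn1, which is also made by neurons (298 to 143 CPM, log2FC −1.06 ± 0.16). The list's median of −0.20 became 0.05 under that scaling, and its member Tspan2 is also among the markers that set the scale. Sox6 was not called in 4 of the 8 fits that left out 1 library (adjusted p up to 0.0976 without WT_HFD 15). Falls in the lineage factor list numbered 3 without WT_HFD 15 or App_HFD 547. Falls in the junction list numbered 2 without App_HFD 547, 3 without WT_HFD 15 and 9 without App_HFD 561.

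Precursor genes split. Of 16 listed, 2 rose and 4 fell, against 12.2% of all genes tested that rose and 11.5% that fell. Pdgfra, the growth factor receptor that defines precursors, measured 58.7, 29.4, 27.9 and 22.04 CPM in WT_HFD and 10.4, 11.9, 13.96 and 11.9 CPM in App_HFD (log2FC −1.52 ± 0.27, adjusted p = 0.00482). Fibroblasts of the meninges also express it, and 4 of 9 fibroblast markers fell, against 11.5% of all genes tested. The part of those cells in the level of Pdgfra was not tested. Cspg4, the proteoglycan NG2, went the other way and measured 8.603, 15.3, 12.5 and 11.4 CPM in WT_HFD and 44.5, 65.7, 51.6 and 43.6 CPM in App_HFD (log2FC 2.10 ± 0.19, adjusted p = 0.000119). Serpine2, a protease inhibitor, rose from 200.3 to 605 CPM (log2FC 1.59 ± 0.14). Vcan (log2FC −0.46 ± 0.25), Lhfpl3 (log2FC 0.10 ± 0.20) and Tnr (log2FC −0.17 ± 0.25), other precursor genes, did not pass. Of 11 genes of newly formed oligodendrocytes, Itpr2, a calcium channel of the endoplasmic reticulum, rose (log2FC 0.53 ± 0.09) and Bmp4, a secreted inhibitor of differentiation, fell (log2FC −1.16 ± 0.27). The same shares over all genes tested, 12.2% and 11.5%, stand beside this list. Bmp4 lost its call without App_HFD 559 or App_HFD 547 (adjusted p up to 0.0565). Falls in the precursor list numbered 2 without WT_HFD 3 or WT_HFD 15 or App_HFD 547 or App_HFD 560. Falls in the fibroblast list numbered 0 without App_HFD 547, 1 without App_HFD 559 and 2 without WT_HFD 3 or App_HFD 561.

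Genes described as disease-associated in oligodendrocytes rose in 12 of 20 cases with none lower. Serpina3n, an acute-phase protease inhibitor, measured 22.01, 25.9, 26.1 and 22.2 CPM in WT_HFD and 52.7, 41.6, 47.4 and 64.7 CPM in App_HFD (log2FC 1.10 ± 0.13, adjusted p = 0.00053). C4b, complement component 4, measured 187, 209, 202 and 213 CPM in WT_HFD and 443, 376, 369 and 527 CPM in App_HFD (log2FC 1.08 ± 0.12, adjusted p = 0.000354). Anxa2 rose from 18.5 to 34.1 CPM (log2FC 0.88 ± 0.20). Klk6 (log2FC −0.09 ± 0.19), Il33 (log2FC −0.11 ± 0.13) and Sgk1 (log2FC 0.05 ± 0.09) did not pass. Other members that rose, among them B2m, Cd9 and the class I heavy chains, are also expressed by microglia, whose markers rose in the same libraries, and the part of those cells was not tested. Anxa2 lost its call without App_HFD 559 (adjusted p up to 0.0528).

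Some lipid synthesis genes fell. Scaling to the oligodendrocyte markers moves log2FC up across genes, so the balance of rises and falls in these lists depends on the scale. Of 25 genes of cholesterol synthesis and its SREBP2 control, 1 rose and 9 fell, with a median of −0.23; scaled to the oligodendrocyte markers, 3 rose, 0 fell and the median was 0.04. Hmgcs1 measured 253, 227, 245 and 200.4 CPM in WT_HFD and 188, 163, 155 and 188 CPM in App_HFD (log2FC −0.42 ± 0.10, adjusted p = 0.0174). Sqle, squalene epoxidase, fell from 62.2 to 47.3 CPM (log2FC −0.40 ± 0.09). Sqle lost its call without App_HFD 547 or WT_HFD 15 (adjusted p up to 0.0662). Hmgcs1 was not called in 3 of the 8 fits that left out 1 library (adjusted p up to 0.0612 without WT_HFD 15). Falls in the cholesterol list numbered 3 without WT_HFD 15, 4 without App_HFD 547 and 5 without WT_HFD 2 or WT_HFD 3 or App_HFD 559.

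Fatty acid synthesis, desaturation and elongation showed 3 rises and 14 falls among 33 genes, with a median of −0.28 (7 rises, 1 fall and −0.03 on the oligodendrocyte scale). Elovl7, an elongase, fell from 225 to 129.6 CPM (log2FC −0.80 ± 0.19), Fads2, a desaturase, from 116 to 77.8 CPM (log2FC −0.57 ± 0.12), and Acsl6, which activates long-chain fatty acids, from 286 to 184 CPM (log2FC −0.64 ± 0.13). Acsl5 rose from 15.2 to 48.3 CPM (log2FC 1.67 ± 0.16). Fasn, fatty acid synthase, did not pass (log2FC −0.15 ± 0.10). Mitochondrial fatty acid oxidation gave 4 rises and 12 falls among 29, with 0 falls on the oligodendrocyte scale. Cpt1a, which admits fatty acids to mitochondria, measured 195, 173, 139.8 and 133 CPM in WT_HFD and 86.4, 113, 123 and 115 CPM in App_HFD (log2FC −0.55 ± 0.15, adjusted p = 0.0242), and Acaa2, a thiolase, fell from 60.3 to 32.6 CPM (log2FC −0.89 ± 0.21). Ucp2, a mitochondrial carrier abundant in macrophages, rose from 205 to 453 CPM (log2FC 1.15 ± 0.15). Elovl7 lost its call without App_HFD 547 or App_HFD 559 (adjusted p up to 0.0599) and Acaa2 without App_HFD 547 (adjusted p up to 0.0592). Cpt1a was not called in 5 of the 8 fits that left out 1 library (adjusted p up to 0.0753 without App_HFD 547). Falls in the fatty acid synthesis list numbered 9 without WT_HFD 15 or App_HFD 547. Rises in the fatty acid oxidation list numbered 2 without WT_HFD 3 or App_HFD 547 or App_HFD 559 or App_HFD 560. Falls in the fatty acid oxidation list numbered 3 without App_HFD 547, 5 without WT_HFD 2 or App_HFD 559 and 6 without WT_HFD 3 or WT_HFD 15 or App_HFD 561.

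Lipid transport genes moved both ways, 12 up and 6 down among 28. Ch25h, which makes the signalling lipid 25-hydroxycholesterol, rose from 1.65 to 16.9 CPM (log2FC 3.35 ± 0.31), and Npc2, a lysosomal cholesterol carrier, from 276 to 655 CPM (log2FC 1.25 ± 0.11). Clu, the apolipoprotein clusterin, measured 1769, 1399, 1399.8 and 1103 CPM in WT_HFD and 604, 799, 872 and 639 CPM in App_HFD (log2FC −0.96 ± 0.17, adjusted p = 0.00371). Abca1 (log2FC 0.03 ± 0.10) and Abcg1 (log2FC 0.17 ± 0.08), which export cholesterol, did not pass. Plin2, a coat protein of lipid droplets, measured 19.1, 20.1, 17.04 and 24.9 CPM in WT_HFD and 67.3, 80.7, 58.3 and 53.7 CPM in App_HFD (log2FC 1.68 ± 0.15, adjusted p = 0.000113). Among 28 sphingolipid genes, Sgpl1, which cleaves sphingosine phosphate, rose (105 to 191 CPM, log2FC 0.86 ± 0.10) and Sgms2, a sphingomyelin synthase, fell (94.5 to 41.8 CPM, log2FC −1.18 ± 0.23). Abcd2, a peroxisomal carrier of very long fatty acids, rose from 38.98 to 99.9 CPM (log2FC 1.36 ± 0.11).

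Isoforms of sugar metabolism moved in opposite directions. Hk2, the inducible hexokinase, rose from 31.2 to 88.5 CPM (log2FC 1.50 ± 0.19), while Hk1 fell from 123 to 78.7 CPM (log2FC −0.65 ± 0.15). Slc16a3, a lactate exporter of glycolytic cells, rose from 7.81 to 48.1 CPM (log2FC 2.62 ± 0.18), and Pfkp, a phosphofructokinase, fell (log2FC −0.80 ± 0.16); on the oligodendrocyte scale no glycolysis gene fell. Igf2, a growth factor of meninges and choroid plexus, fell from 982 to 481 CPM (log2FC −1.03 ± 0.23), and Igfbp2, its binding protein, from 518 to 191 CPM (log2FC −1.44 ± 0.36). The insulin receptor, Insr, did not pass (log2FC −0.18 ± 0.10). Of 18 genes of the glucocorticoid receptor and its targets, 3 rose and none fell, against 12.2% of all genes tested that rose. They were Dusp1, Fkbp5 and Per1 (log2FC of 0.86 ± 0.11, 0.73 ± 0.19 and 0.35 ± 0.09). Of the genes of endoplasmic reticulum stress, 2 of 22 rose, also against 12.2% of all genes tested. Those 2 were Sdf2l1 (log2FC 0.92 ± 0.22) and Nupr1 (log2FC 0.69 ± 0.20), while Ddit3, which encodes CHOP, did not pass (18.9 and 19.2 CPM). Hk1 lost its call without App_HFD 547 (adjusted p up to 0.059), Igf2 without App_HFD 547 (adjusted p up to 0.0507), Igfbp2 without App_HFD 547 or App_HFD 559 (adjusted p up to 0.0669), Per1 without WT_HFD 3 or App_HFD 559 (adjusted p up to 0.0699) and Sdf2l1 without App_HFD 559 (adjusted p up to 0.051). Fkbp5 was not called in 3 of the 8 fits that left out 1 library (adjusted p up to 0.0629 without App_HFD 559) and Nupr1 in 4 (up to 0.0918 without App_HFD 547).

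Genes that process the amyloid precursor moved both ways. Of 26, 6 rose and 5 fell, against 12.2% of all genes tested that rose and 11.5% that fell. Adam17, an α-secretase, rose from 81.3 to 116 CPM (log2FC 0.52 ± 0.09). Mme, the amyloid-degrading enzyme neprilysin, fell from 2.34 to 1.02 CPM (log2FC −1.21 ± 0.33), and Aph1c, a γ-secretase subunit, fell from 34.1 to 19.4 CPM (log2FC −0.81 ± 0.19). The β-secretase Bace1 measured 181, 187, 192 and 174 CPM in WT_HFD and 169, 135, 174 and 192 CPM in App_HFD and did not pass (log2FC −0.13 ± 0.10, adjusted p = 0.405). Of 38 mouse counterparts of genes near human Alzheimer risk variants, 21 rose and 5 fell (median 0.40), beside the same shares of 12.2% and 11.5%. Many of the 21 are microglial, such as Abi3 (30.97 to 87.3 CPM, log2FC 1.49 ± 0.20) and Cd33 (58.5 to 111 CPM, log2FC 0.93 ± 0.20). Beside Clu, App and Tmem106b, those that fell were Ace, angiotensin-converting enzyme (608 to 268 CPM, log2FC −1.19 ± 0.29), and Fermt2 (log2FC −0.46 ± 0.10). Bin1 (log2FC −0.22 ± 0.09) and Sorl1 (log2FC −0.03 ± 0.10) did not pass. Aph1c lost its call without App_HFD 547 (adjusted p up to 0.0548). Mme was not called in 3 of the 8 fits that left out 1 library (adjusted p up to 0.0824 without App_HFD 559) and Ace in 3 (up to 0.0691 without App_HFD 547). Falls in the amyloid processing list numbered 2 without App_HFD 547 and 3 without WT_HFD 15. Falls in the Alzheimer risk list numbered 2 without App_HFD 547.

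Wnt genes moved both ways. Dkk2, an inhibitor of Wnt signalling, measured 0.256, 0.413, 0.205 and 0.454 CPM in WT_HFD and 24.03, 26.2, 18.6 and 14.3 CPM in App_HFD (log2FC 5.96 ± 0.30, adjusted p = 8.68e-06), and Wif1, another inhibitor, 0, 0, 0.185 and 0.0739 CPM in WT_HFD and 0.686, 1.75, 0.907 and 0.708 CPM in App_HFD (log2FC 3.95 ± 0.86, adjusted p = 0.011). The inhibitors Sfrp1, Dkk3 and Nkd1 fell (log2FC of −1.11 ± 0.22, −0.89 ± 0.14 and −0.51 ± 0.11). Of 37 Wnt genes, 3 rose and 12 fell, against 12.2% of all genes tested that rose and 11.5% that fell. Among the falls were Axin2 and Lef1, common readouts of the pathway (log2FC −0.68 ± 0.15 and −0.83 ± 0.21), and the receptor Fzd6 (log2FC −1.02 ± 0.16); on the oligodendrocyte scale 4 falls were called and the median went from −0.28 to −0.02. Kcnk9, a tandem-pore potassium channel, measured 0, 0.131, 0.123 and 0.0845 CPM in WT_HFD and 6.404, 7.26, 5.69 and 4.9001 CPM in App_HFD (log2FC 6.14 ± 0.54, adjusted p = 0.000109). Kcnj10, the glial channel Kir4.1, had 747 and 757 CPM and did not pass (log2FC 0.02 ± 0.12). Of the urokinase system, Plau rose from 19.2 to 217 CPM (log2FC 3.50 ± 0.20) and its receptor Plaur from 7.65 to 56.997 CPM (log2FC 2.90 ± 0.30). Mmp12, a macrophage elastase, rose from 0.908 to 10.4 CPM (log2FC 3.52 ± 0.26). Lef1 was not called in 5 of the 8 fits that left out 1 library (adjusted p up to 0.0765 without App_HFD 547). Falls in the Wnt list numbered 7 without WT_HFD 3 or WT_HFD 15 or App_HFD 547.

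Markers of several cell types other than oligodendrocytes and microglia fell. Of 12 markers of choroid plexus and ependyma, 8 fell and none rose (median −1.12). Ttr, transthyretin, measured 36098, 21240.5, 23199 and 17386 CPM in WT_HFD and 10491, 10974, 13879 and 6673 CPM in App_HFD (log2FC −1.22 ± 0.27, adjusted p = 0.0111), and Kl, klotho, 1863, 1082, 937 and 722 CPM in WT_HFD and 392, 477, 623 and 346 CPM in App_HFD (log2FC −1.32 ± 0.29, adjusted p = 0.0114). The ependymal genes Foxj1, Ccdc153 and Tmem212 did not pass (log2FC of −0.46 ± 0.16, −0.0043 ± 0.35 and −0.09 ± 0.36). Of 15 endothelial markers 8 fell (median −0.83), Cdh5, VE-cadherin, from 21.5 to 11.1 CPM (log2FC −0.96 ± 0.20), and none rose. WT_HFD 2 was the lowest of its group, with a summed level of 372 CPM over these markers, within the range of the knock-in libraries (353 to 416 CPM). Of 11 pericyte and smooth muscle markers 3 fell, and 10 fell without WT_HFD 2, and also 10 with WT_HFD 3 and 15 as the only wild-type libraries, where 14 endothelial markers fell. Falls in the choroid plexus list numbered 4 without App_HFD 547 or App_HFD 559.

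Astrocyte markers fell in 7 of 15 cases, such as the glutamate transporter Slc1a2 (1714 to 1162 CPM, log2FC −0.56 ± 0.18); on the oligodendrocyte scale none of these falls was called. Gfap, the filament protein of reactive astrocytes, measured 11.1, 16.9, 15.3 and 13.1 CPM in WT_HFD and 18.2, 22.1, 20.8 and 20.96 CPM in App_HFD (log2FC 0.54 ± 0.13, adjusted p = 0.0165). Its groups were just separated. Blood-derived signals depended on single libraries. Hbb-bs, β-globin, measured 3049, 114, 334 and 1465 CPM in WT_HFD and 127, 118, 107 and 40.8 CPM in App_HFD (log2FC −3.66 ± 1.01, adjusted p = 0.0366), so that WT_HFD 2 and 16 carried the difference. All 5 erythroid markers fell with these libraries (median −3.54) and none did without them (median −1.02). The B cell gene Ms4a1 (log2FC −2.29 ± 0.69) likewise lost its call. Of 10 neutrophil markers tested, 1 rose and 2 fell with all 8 libraries, against 12.2% and 11.5% of all genes tested. The falls were Retnlg (log2FC −2.22 ± 0.49) and Mmp8 (log2FC −1.79 ± 0.54), and 1 fell without WT_HFD 2 and 16. The summed level of 12 neutrophil markers was 80.7, 63.0, 62.1 and 360 CPM in WT_HFD and 203, 226, 176 and 154 CPM in App_HFD, with WT_HFD 16 the highest. Gfap lost its call without App_HFD 559 (adjusted p up to 0.0659). Slc1a2 was not called in 6 of the 8 fits that left out 1 library (adjusted p up to 0.154 without WT_HFD 15), Hbb-bs in 6 (up to 0.0944 without App_HFD 547), Ms4a1 in 7 (up to 0.105 without App_HFD 560) and Mmp8 in 5 (up to 0.114 without App_HFD 547). Falls in the astrocyte list numbered 1 without WT_HFD 15, 2 without WT_HFD 3, 3 without App_HFD 547 and 4 without App_HFD 559 or App_HFD 560 or App_HFD 561. Falls in the erythroid list numbered 0 without WT_HFD 2 or WT_HFD 16 or App_HFD 547 or App_HFD 559 or App_HFD 560 or App_HFD 561.

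**Figure D4:**
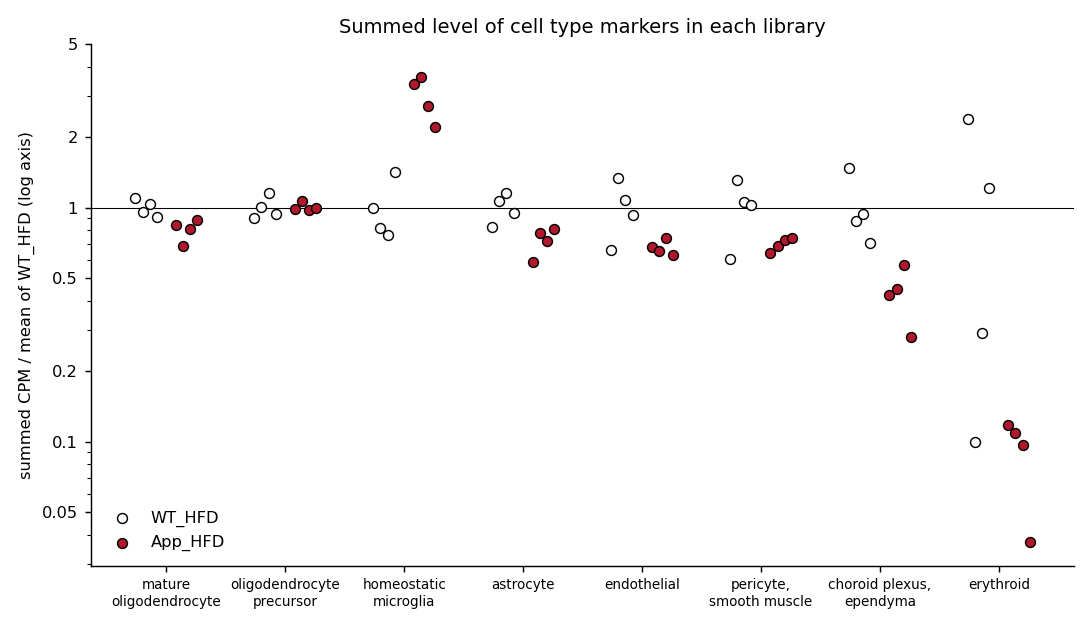
Summed level of the markers of 8 cell types in each library, divided by the mean of the 4 WT_HFD libraries (log axis); open circles are WT_HFD and filled circles App_HFD. The sum of the homeostatic microglial markers is higher in every App_HFD library, although only 14 of the 17 genes are so when taken singly. The sums for mature oligodendrocytes, astrocytes and choroid plexus are lower in every App_HFD library. Without Enpp2, which choroid plexus also makes, the summed mature oligodendrocyte markers overlap between the groups. Markers of vascular cells overlap through WT_HFD 2, and erythroid markers are spread widely within WT_HFD.

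The 2 genotypes were also compared on the control diet. That comparison used 4 wild-type and 3 knock-in libraries, without App_NCD 553, in a fit over 15 libraries and 22322 genes, and called 3900 genes (17.5%). The 2 comparisons share no library, although the 15-library fit of the control diet also used the high-fat libraries to estimate spread. Of the 4816 genes called on the high-fat diet, 4760 had the same sign on the control diet. On both diets 1849 genes rose and 1002 fell, and none was called in opposite directions. Cst7 had log2FC of 9.24 ± 0.58 on the high-fat and 9.72 ± 0.59 on the control diet, Trem2 of 3.45 ± 0.26 and 3.09 ± 0.28, Apoe of 1.24 ± 0.14 and 1.25 ± 0.15, and App of −0.45 ± 0.11 and −0.51 ± 0.15. High-fat values are those of the 8-library fit. The medians of the plaque-associated list were 2.65 and 2.62, and those of the ribosomal list 0.93 and 1.11.

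**Figure D5:**
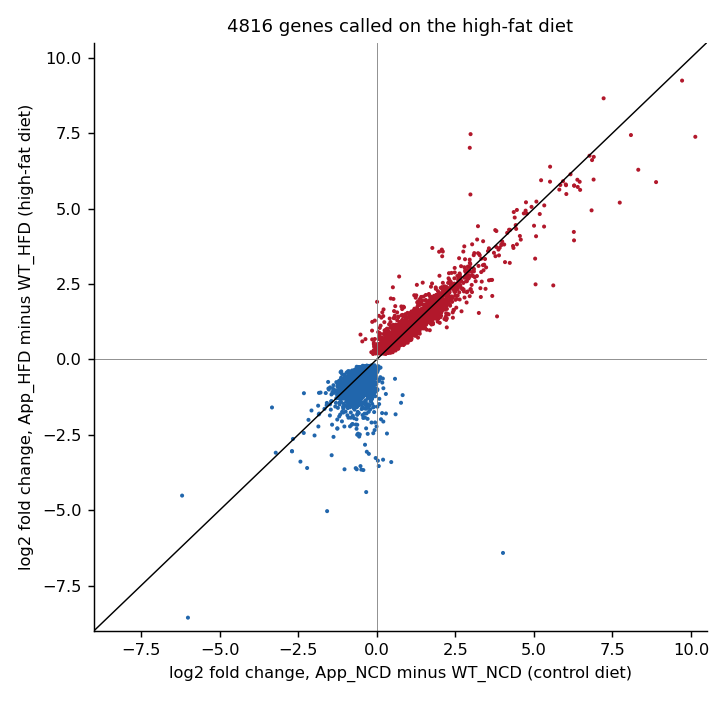
Log2 fold change between genotypes on the control diet (x axis, without App_NCD 553) and on the high-fat diet (y axis) for the 4816 genes called on the high-fat diet; the line marks equal values. Of these genes, 4760 have the same sign on both diets.

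The difference between the diets was tested directly as an interaction, the effect of genotype on the high-fat diet minus that on the control diet. edgeR called no gene among 22322, with 614 genes at an unadjusted p below 0.05 and a lowest adjusted p of 0.999985. DESeq2 called 6 and limma-voom none. The smallest p belonged to Nos1, neuronal nitric oxide synthase, which measured 3.21, 3.53, 3.51 and 3.95 CPM in WT_HFD and 1.24, 1.29, 1.11 and 1.37 CPM in App_HFD on the high-fat diet. Its genotype effect was −1.50 ± 0.15 there and −0.37 ± 0.15 on the control diet (difference −1.10 ± 0.20, unadjusted p = 7.49e-05). Igha, the heavy chain of immunoglobulin A, followed with 4.66, 6.82, 0.298 and 0.549 CPM in WT_HFD and 0, 0, 0.0313 and 0.0945 CPM in App_HFD. The wild-type values of libraries 2 and 3 were the highest, and the log2FC was −6.42 ± 1.32 on the high-fat and 4.02 ± 1.47 on the control diet. The medians of the erythroid markers were −3.54 on the high-fat and 0.03 on the control diet, with WT_HFD 2 and 16 the highest libraries on the high-fat diet. The median for choroid plexus markers was −1.12 on the high-fat and −0.60 on the control diet. For Cst7 the difference between diets was −0.45 ± 0.62, unadjusted p = 0.486. A missing call does not show that the effects are equal.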

How the data were processed

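RNA of sorted brain cells was sequenced from 16 mice. The deposited table of the authors holds gene-level estimated counts, not normalized. Per the submitters' processing notes the tools were fastp 0.23.2, HISAT2 2.2.1, bedtools 2.25.0 and StringTie 2.2.1 on mm10. The annotation, and whether counting used strand, are not given in the sources used here. Estimated counts enter the tests as whole numbers; the deposited values were already whole, so rounding changed none. All 16 columns matched a library title, from which genotype and diet were taken. Each library is labelled as 1 mouse, and the tests set the difference between genotypes against the spread between these samples.

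The 8 high-fat libraries were fitted alone with edgeR 4.0.16 in R 4.3.3, using filterByExpr (20374 of 53801 genes kept), TMM scaling, the robust quasi-likelihood test with 6 residual degrees of freedom, Benjamini-Hochberg adjustment over all genes tested and a threshold of 0.05. The common biological coefficient of variation was 22.5%. The interaction was fitted over 15 libraries, without App_NCD 553. Alternatives were DESeq2 1.42.0, voom in limma 3.58.1 with sample weights, RLE size factors, unscaled totals, scaling to oligodendrocyte markers, no low-count filter, at least 10 counts in every library, non-robust dispersions, other sets of libraries and each library left out. On simulated data with 200 genes changed, the fit recovered 91.8% of 8-fold changes among 20065 genes tested.

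The rule for named genes took App, the 15 highest and 15 lowest called log2 fold changes at a mean of at least 1 CPM and again at 100 CPM, the 10 smallest p, up to 8 called members of each of 56 gene lists by p (up to 4 by level where none was called), and for the interaction the 10 smallest p. Of 195 genes named, 76 fall outside this rule and were chosen after their values were seen. Members and lists were chosen with earlier results of these data known, so counts over a list are descriptions. Some genes are not reported here. Gene positions are from GENCODE M21, and promoters from RefSeq GRCm38.p6.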

Additional observations from a re-analysis of the deposited data

Results flagged for a closer look

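Among 398 groups of 4 values, the levels of the named genes in each genotype and 4 measures of the libraries, 28 held 1 library that stood apart by Dixon's criterion. Chance gives about 1 in 20. WT_HFD 16 lay above the other 3 wild-type libraries for C3ar1 (43.8 CPM, nearest 28.4), Ccl6 (31.2 CPM, nearest 14.6), Cd274 (12.5 CPM, nearest 5.87), Cst3 (2432 CPM, nearest 1639) and H2-D1 (206 CPM, nearest 141). WT_HFD 16 lay above the other 3 wild-type libraries for Mki67 (25.7 CPM, nearest 4.85), Mmp8 (3.07 CPM, nearest 1.03), Ms4a1 (22.1 CPM, nearest 5.55), Retnlg (3.97 CPM, nearest 1.39) and Top2a (11.8 CPM, nearest 3.84). WT_HFD 16 lay above the other 3 wild-type libraries for Tyrobp (108 CPM, nearest 61.2). App_HFD 560 lay above the other 3 knock-in libraries for Aph1c (23.98 CPM, nearest 18.4), Axin2 (11.4 CPM, nearest 8.201) and Bmp4 (4.78 CPM, nearest 2.87). WT_HFD 2 lay above the other 3 wild-type libraries for Mitf (56.9 CPM, nearest 37.4), Mme (3.56 CPM, nearest 2.05) and Mmp12 (1.46 CPM, nearest 0.775). App_HFD 547 lay below the other 3 knock-in libraries for Acsl6 (140.4 CPM, nearest 194) and Dkk3 (14.5 CPM, nearest 21.2). App_HFD 561 lay above the other 3 knock-in libraries for Megf10 (234 CPM, nearest 187) and Tnr (7.38 CPM, nearest 4.09). WT_HFD 15 lay below the other 3 wild-type libraries for Cd5 (0 CPM, nearest 0.0511) and Gpnmb (3.14 CPM, nearest 4.02). App_HFD 547 lay above the other 3 knock-in libraries for Il1b (128 CPM, nearest 101). App_HFD 560 lay below the other 3 knock-in libraries for Fkbp5 (179 CPM, nearest 263). WT_HFD 16 lay below the other 3 wild-type libraries for Arc (29.6 CPM, nearest 37.1). WT_HFD 2 lay below the other 3 wild-type libraries for Axl (58.8 CPM, nearest 70.4). WT_HFD 3 lay above the other 3 wild-type libraries for Insr (114 CPM, nearest 103). The edgeR test of the difference between diets passed the threshold for none of the named genes.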

How the results depend on the processing

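The count of 4816 calls stayed within 1.5 times under DESeq2 (5955), limma-voom (6380), 3 other scalings, both other filters and non-robust dispersions (3846 to 5245 over those scalings, filters and dispersions). In a fit on all 16 libraries, with App_NCD 553 in, it was 1554, and 1521 of those were also called in the main fit. Without 553 it was 4307. With WT_HFD 3 and 15 as the only wild-type libraries it was 4509. Leaving out each library in turn gave 2874 (without App_HFD 547) to 5486 (without WT_HFD 16). For App the log2 fold change ranged from −0.52 to −0.37 over those 8 fits, with adjusted p from 0.00741 to 0.0529. It was −0.20 (adjusted p = 0.170) with oligodendrocyte scaling and −0.40 (adjusted p = 0.153) with all 16 libraries. The interaction test called 0 genes, 0 also in each of the 15 fits that left out 1 library, and 6 by DESeq2. No called gene named changed direction under any alternative. Beside App, of 151 called genes named, 34 lost the call with oligodendrocyte scaling, 52 with all 16 libraries and 41 in at least 1 fit without a library. The causes were not tested. No paired analysis was possible because the 2 genotypes share no replicate number. On simulated counts with 4 libraries a group, 16.3% of genes changed 1.5-fold were called, 48.9% of 2-fold and 89.4% of 4-fold changes. Far fewer genes were changed there (47 or 49 at each fold among 20065 tested) than the 4816 called in the main fit. Adjustment over all genes is stricter when fewer genes change, so these shares do not give the share of small changes missed here.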
